A study of Arabidopsis thaliana with 8 samples.

Results

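The probes described here are those of plates TC00 to TC13, the last plates in the unbroken ID order of a tiling array for Arabidopsis chromosome 4. Members were taken by probe ID alone: the letters TC, a plate number from 00 to 13, a row from A to H and a well. Of 1282 such IDs, 1268 had a value in all 8 columns, out of 21295 valued probes on the array. The 14 IDs without a value lay singly on 8 plates, and 4 of them were on TC03. Plates TC00 to TC12 hold 96 IDs each, and TC13 holds 34. No ID of plates TC14 to TC16 was among those analysed here, and the next IDs are those of TC17.

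Each sample was chromatin of whole seedlings, 10 days old, grown in liquid medium and labelled ColxC24, a cross of the accessions Col-0 and C24, although the strain field reads c24. Chromatin precipitated with an antibody to histone H3 dimethylated at lysine 4 (H3K4me2) was hybridised against input DNA in 4 replicates, I to IV, each as a dye swap. All samples share this genotype, age and antibody, and no parental or control sample was analysed here. The labels do not say whether the replicates came from separate plants, so p-values here cover the spread among 4 samples that may be technical repeats. In whole seedlings, fewer cells with the mark and less mark per cell cannot be told apart.

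H3K4me2 is a nucleosome mark written by SET-domain methyltransferases. In Arabidopsis it lies over genes in euchromatin and is scarce over the silent repeats of heterochromatin. Across a euchromatic arm it is therefore usually found in short stretches, with gaps between genes and over transposons. The probe IDs are not paired with genes or positions in the file or in the gene table used, where 0 of the 1268 IDs occur, so no gene is named here and ID order is the only order used.

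Values are log ratios, taken as log2, minus the median of all valued probes in that replicate. The direction of the ratio (precipitated over input, or the reverse) is not given, and the 2 columns of a dye swap are identical, so it could not be read from the dyes. "Above" and "below" follow the sign as deposited, and all such statements change places if the sign is turned. The base of the logarithm is not given either.

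Plates TC00 to TC13 had more probes above the median probe than below it. In limma's test for a distance over 0.5, with Benjamini-Hochberg adjustment over all 21295 probes, 434 of the 1268 probes were above and 187 below. These are 34.2% and 14.7%, against 28.1% above and 30.6% below over all probes of the array. The other 647 probes passed in neither direction. The median ratio for replicates I to IV was 0.52, 0.34, 0.46 and 0.35. All 4 lay above 0, and those of I and III were higher than those of II and IV. Where 0 is placed decides which side is larger: with the values as deposited, whose medians over all probes were -0.69, -0.23, -0.76 and -0.33, 143 probes were above and 305 below, and with the mode of each replicate at 0 there were 133 above and 387 below.

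The middle of the distribution, from the 25th to the 75th percentile of the mean ratio, ran from -0.32 to 0.98. Of the 1268 probes, 1050 had 1 sign in all 4 replicates, 707 of them above 0 and 343 below. Over the array a larger share had 1 sign, 18379 of 21295 probes, with 9171 above 0 and 9208 below. On TB86 to TB99 it was 1097 of 1334, with 751 above and 346 below. Far values were few on the low side: 87 probes (6.86%) were under -1 in all 4 replicates and 8 (0.631%) were under -2, where the shares over all probes were 21.2% and 9.40%. This was not particular to TC00 to TC13. On TB86 to TB99, 66 of 1334 probes (4.95%) were under -1 in all replicates and 4 were under -2. Over all TB plates the shares were 5.37% and 0.899%. On the high side 188 probes (14.8%) were over 1 in all replicates, near the 14.3% over all probes. The SD over probes was accordingly 0.92 here and 1.34 over the array, and it was 0.88 on TB86 to TB99 and 0.97 over all TB plates. The spread of a single probe between replicates was typical of the array, with a median SD of 0.20 here and over all probes.

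**Figure D1:**
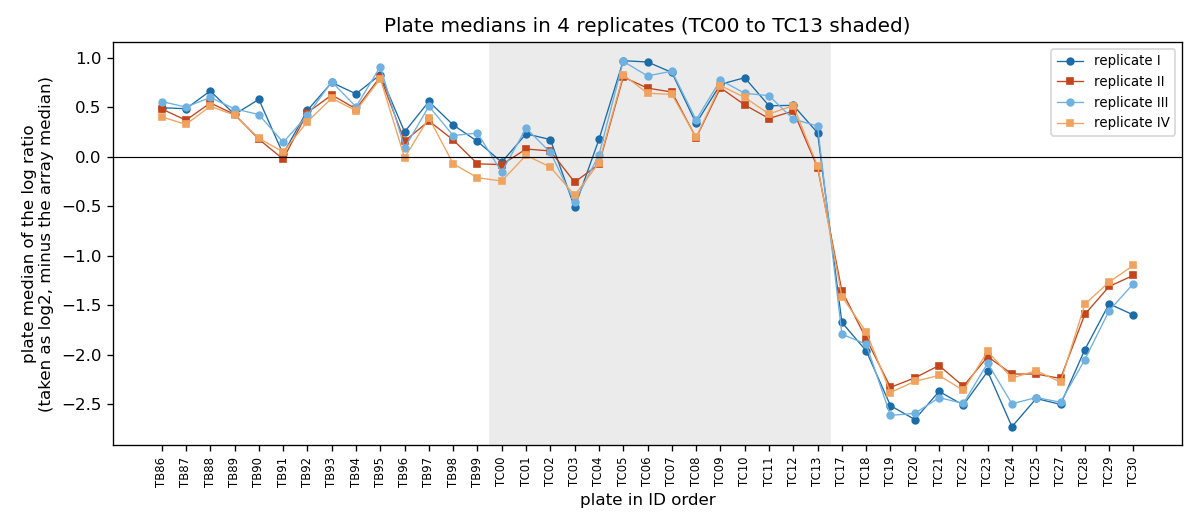
Median log ratio of each plate (vertical axis, taken as log2, minus the array median) in ID order (horizontal axis) for replicates I to IV, with TC00 to TC13 shaded, the last 14 TB plates to the left and TC17 to TC30 to the right. TC00 to TC04 lie near 0 except TC03, which is lower. On average over the replicates TC05 to TC07 are the highest of the shaded plates. The values then come down unevenly to TC13, and every plate from TC17 on is far lower.

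The plates fell into stretches, which were marked off after their values were seen. On TC00 to TC04 (473 probes) the median was -0.06 ± 0.06 (SD, n = 4), with 92 probes (19.5%) above and 125 (26.4%) below. Both shares were under those over all probes of the array, 28.1% above and 30.6% below. The plates differed, with 18 above and 32 below on TC03 but 25 above and 22 below on TC02. On TC05 to TC07 (287 probes) the median was 0.80 ± 0.11, with 154 probes (53.7%) above and 11 (3.83%) below. The step between these stretches was one of plate medians, and the row medians went down before they went up. They were 0.98 on TC04E, 0.21 on TC04F, -0.60 on TC04G and 0.08 on TC04H. On TC05A, TC05B and TC05C they were 0.41, 0.93 and 1.09. The median of TC05 exceeded that of TC04 by 0.80, 0.88, 0.95 and 0.89 in replicates I to IV, several times the spread between replicates.

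TC05 had the highest median of the 14 plates, reading 0.97, 0.81, 0.97 and 0.83 for I to IV, and ranked 10 of the 231 plates of the array. Of its 96 probes, 59 were above and 1 was below, and its SD over probes, 0.60, was the smallest of the 14 plates. TC03 was the lowest plate at -0.40 ± 0.11, with values of -0.51, -0.26, -0.46 and -0.39, and ranked 167. It was also the most varied, with an SD over probes of 1.08, 18 probes above and 32 below. TC06 and TC07 followed TC05 at 0.78 ± 0.14 and 0.75 ± 0.13.

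Beyond TC07 the plates were lower again, in uneven steps. TC08 was at 0.28 ± 0.09, below both of its neighbours in all 4 replicates. TC09 was at 0.73 ± 0.03, TC10 at 0.64 ± 0.12, TC11 at 0.49 ± 0.10 and TC12 at 0.47 ± 0.07. TC09 and TC10 differ by less than the SD of TC10, and TC11 and TC12 differ by less than either SD. TC13 was at 0.09 ± 0.22, with 0.24 and 0.31 in I and III and -0.11 and -0.09 in II and IV. Its median was under that of TC12 in 4 of 4 replicates, by 0.28, 0.57, 0.07 and 0.61. With 34 probes in place of 92 to 96, TC13 is the least precisely measured plate.

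The trend towards TC13 thus depended on where it was begun. The slope of the plate median over all 14 plates was 0.044, 0.031, 0.048 and 0.047 per plate in I to IV, a mean of 0.043 ± 0.0077 (SD, n = 4), upward in each of the 4. The sign-flip permutation test (exact, two-sided) gave p = 0.13, the smallest that 4 replicates allow. The test and the SDs treat the 4 replicates as independent, but they were alike in pairs. Over the 1268 probes the Pearson correlation was 0.98 for I and III, 0.98 for II and IV, and 0.90 for each other pair. From TC05 on the slope was negative, at -0.074, -0.076, -0.069 and -0.068 per plate, and it was -0.051 ± 0.014 with TC13 left out. These later slopes were chosen after the plates were seen and were not tested. The median over TC05 to TC12 exceeded that over TC00 to TC04 by 0.69 ± 0.06.

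Inside TC13 the row medians were lower from A to C in every replicate. Row A (12 probes) had medians of 0.71, 0.54, 0.86 and 0.52 in I to IV, with 5 probes above and 2 below. Row B was at 0.07, -0.33, 0.23 and -0.21, with 1 above and 3 below. Row C, the last 10 probes, was at -0.55, -0.71, -0.39 and -0.63, with 1 above and 4 below. The median of row C was under that of row A in every replicate, but single probes of the 2 rows overlapped: TC13C05 was at 0.90 ± 0.22 and above in the test, and TC13A11 was at -0.90 and below. Of the last 4 probes of row C, TC13C07 was at -1.61 ± 0.12 (SD, n = 4), TC13C08 at -1.88 ± 0.24 and TC13C09 at -1.43 ± 0.39, all below in the test. The last probe, TC13C10, was at -0.67 ± 0.29 and did not pass (limma adjusted p = 0.16). Falls as large as that from row A to row C also lay inside other plates. Row medians went from 0.94 on TC03B to -1.52 on TC03C. They went from 0.67 on TC10A to -0.68 on TC10D, and were at 1.24 on TC10E.

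At its start the stretch joined on to the TB plates. The last TB probe, TB99H12, was at 2.26 ± 0.27 and the first probe here, TC00A01, at 0.45 ± 0.16, and TB99 as a plate was near 0, at 0.03 ± 0.21 against -0.13 ± 0.09 for TC00. Over the whole stretch the median was close to that of the 14 plates before it, TB86 to TB99 (1334 probes). The difference was 0.014, -0.050, -0.024 and 0.030 in I to IV, a mean of -0.0074 ± 0.036. It was positive in 2 of 4 replicates (exact sign-flip p = 0.75, and 0.75 after adjustment over both comparisons). The shares were close as well, with 34.8% of those TB probes above and 13.3% below.

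Plates TC17 to TC30, the next IDs (1102 probes), were far lower. The median of TC00 to TC13 exceeded theirs by 2.79, 2.33, 2.73 and 2.38, a mean of 2.56 ± 0.24, in 4 of 4 replicates (exact sign-flip p = 0.13, the smallest possible, and 0.25 adjusted). The first probe of that series, TC17D01, was at -1.89 ± 0.10, against -0.67 for TC13C10. The median of plate TC17 was -1.56 ± 0.21, against -0.57 ± 0.14 for row C of TC13, and the plates between were not analysed here.

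**Figure D2:**
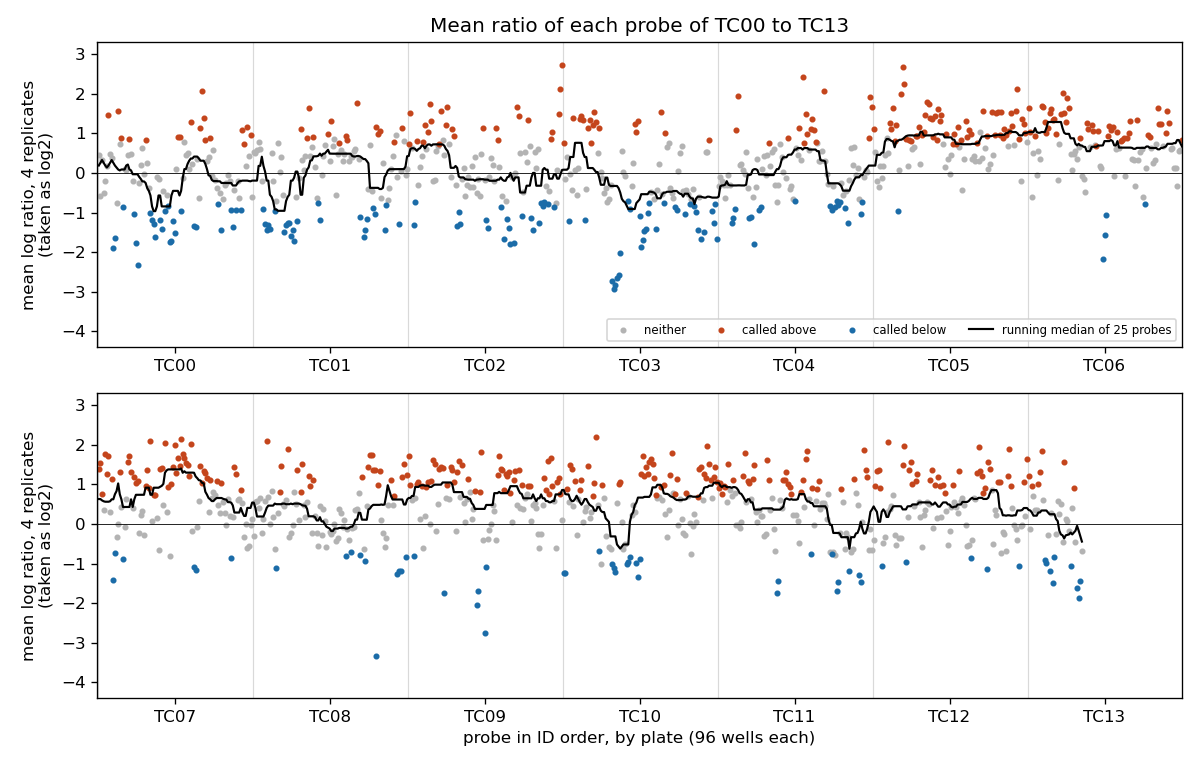
Mean log ratio over 4 replicates (vertical axis, taken as log2) of each of the 1268 probes in ID order (horizontal axis, TC00 to TC06 above, TC07 to TC13 below), coloured by call in limma's test for a distance over 0.5. The black line is a running median of 25 probes. Low probes gather on TC00 to TC04, high probes on TC05 to TC07 and TC09 to TC12, and the line drops at the end of TC13.

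Within the plates the ratio changed over short distances. Between a probe and the next well of its row the Pearson correlation over probes was 0.56 (1150 pairs). It was 0.66 from well 12 to well 1 of the next row (90 pairs) and 0.59 from the last well of a plate to the first of the next (13 pairs). Between the same wells of successive rows it was only 0.12, and of successive plates 0.07. Likeness therefore ran along the IDs, across rows and plates, and not between like positions on plates. At 2 wells it was 0.32, at 5 wells 0.18 and at 20 wells 0.12, where TB86 to TB99 had 0.52 at 1 well, 0.23 at 2, 0.08 at 5 and -0.03 at 20. Since neighbouring probes share their chromatin and samples, these correlations are descriptions.

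Joined along successive IDs, the probes above made 188 runs, 2.31 probes long on average and 81 of them of 1 probe. Those below made 100 runs, 1.87 probes long on average and 53 of them single. In TB86 to TB99 the mean lengths were 2.21 and 1.89. The longest runs above had 13 probes each. TC07D10 to TC07E10 had means of 1.68, 1.49, 1.74 and 1.47 in I to IV, and TC05C07 to TC05D07 had 1.38, 1.3, 1.38 and 1.27. They were followed by TC06A09 to TC06B06, with 10 probes at 1.36 ± 0.14 (SD, n = 4). TC10E01 to TC10E10 also had 10 probes, at 1.35 ± 0.18. Of the 107 rows with at least 8 valued probes, 70 had a median above 0 in all 4 replicates and 21 below. This count depends on where 0 is placed and was not made for other plates. The mean of the 4 replicate medians was itself 0.42, both here and on TB86 to TB99. Row E of TC07 was the highest at 1.58 ± 0.25.

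The longest runs below were shorter, with 7 probes at most. TC01B08 to TC01C02 had means of -1.50, -1.45, -1.38 and -1.43, and the replicates differed little. TC03D12 to TC03E06 had -1.50, -1.09, -1.44 and -1.3. The run TC03C07 to TC03C12, with 6 probes, was the deepest of the 3 longest, at -3.13, -2.18, -3.0 and -2.20 in I to IV. II and IV were higher than I and III there, yet all 4 were far below 0.

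That run had abrupt edges. TC03C06, just before it, was at -0.30 ± 0.43, TC03C07 was at -2.73 ± 0.76, and the values stayed between -2.93 and -2.03 to TC03C12. The next probe, TC03D01, was at 0.56 ± 0.32. Of the 8 probes of TC00 to TC13 under -2 in all replicates, 4 were in this block (TC03C08 to TC03C11) and the other 4 lay singly on TC00, TC06, TC08 and TC09.

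**Figure D3:**
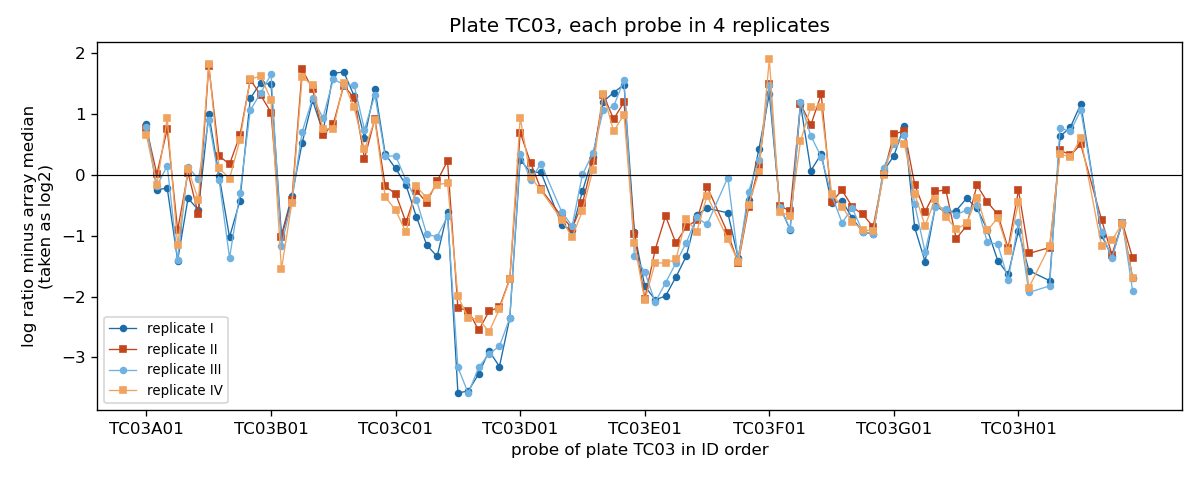
Log ratio minus the array median (vertical axis, taken as log2) of each valued probe of plate TC03 in ID order (horizontal axis), with 1 line for each of the 4 replicates. The 6 probes from TC03C07 to TC03C12 form a low block with steep sides, where I and III reach -3.6 and II and IV stay above -2.6.

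The probes named by rule were the 6 highest and the 6 lowest of those past the test. TC02H12 was the highest, with 2.89, 2.72, 2.77 and 2.58 in I to IV (limma adjusted p = 1.2e-06). It closed plate TC02 beside TC02H11 at 2.13 and TC03A01 at 0.76. TC05B07 had 2.41, 2.86, 2.53 and 2.87 (adjusted p = 2.7e-06), and its neighbour TC05B08 had 1.97, 2.51, 1.92 and 2.55 (adjusted p = 1.9e-05). These 2 adjacent probes were higher in II and IV than in I and III, against the direction of most probes here. TC04E05, at 2.42 ± 0.18, lay between neighbours at 0.33 and 0.75, the latter also above in the test. TC10B09 was at 2.19 ± 0.15 and TC07E04, inside the longest run above, at 2.14 ± 0.11.

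At the low end 4 of the 6 named probes belonged to the block on TC03, and the other 2 did not. TC08G05 was the lowest of all, at -3.18, -3.42, -3.28 and -3.47 (adjusted p = 9e-07), with a spread of 0.13 between replicates. It lay between TC08G04 at 1.37 and TC08G06 at 1.0, so this 1 probe was more than 4 below either side. TC09D12 had -2.65, -2.93, -2.45 and -3.0 (adjusted p = 2.8e-06), between neighbours at -0.40 and -1.08. In the block, TC03C08 was at -3.55, -2.23, -3.59 and -2.35. TC03C09 followed at -3.27, -2.55, -3.16 and -2.37, TC03C07 at -3.58, -2.19, -3.16 and -2.0, and TC03C10 at -2.89, -2.24, -2.94 and -2.58. All 4 passed, with adjusted p from 6.2e-06 to 0.00016.

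With the median of all probes at 0, replicates II and IV differed from I and III on these plates. The difference had the same direction in each set of title numbers. I and II share 1 set of numbers in their titles and III and IV another, so II minus I and IV minus III are differences within a set. The median over the 1268 probes was -0.12 for II minus I and -0.13 for IV minus III. For III minus I it was -0.04, and for IV minus II it was -0.03. The SDs over probes were 0.43 and 0.43 for the former and 0.21 and 0.19 for the latter. The direction of the medians depends on the centring: with the values as deposited they were 0.34 for II minus I and 0.30 for IV minus III. With the mode of each replicate at 0, the median ratios of I to IV were -0.19, -0.25, -0.26 and -0.16. There II was below I but IV was above III. The division was known from earlier results of these data and is not in the labels, so it is described without a test. Its cause was not tested.

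The same probes differed in both sets. II minus I and IV minus III had a Pearson correlation of 0.81 over the 1268 probes. II was below I and IV below III at 658 probes (51.9%), and both were higher at 368 (29.0%). Counted by a gap of over 0.5 between the replicates, II and IV were both lower than I and III at 100 probes (7.89%) and both higher at 41 (3.23%). Over the array these shares were 5.0% lower and 7.40% higher, so the balance here was the reverse of that of all probes. Without centring, where the array medians of II and IV lie above those of I and III, the counts were 9 lower and 245 higher.

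The neighbouring TB plates showed the same balance. In TB86 to TB99 II minus I had a median of -0.10 and IV minus III of -0.15, with 9.67% of the probes lower in II and IV by that gap and 3.60% higher. TC17 to TC30 were opposite, with medians of 0.24 and 0.23, and with 0.817% lower and 10.2% higher. The difference is therefore not particular to plates TC00 to TC13.

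Along the plates, the median of II minus I was below 0 on 13 of 14 and that of IV minus III on 12. The exception on both was TC03, at 0.18 and 0.05, and TC12 was at -0.06 and 0.11. Of the 41 probes higher in II and IV by a gap over 0.5, 15 were among the 92 probes of TC03. Over the array 7.40% of probes were higher and 5.0% lower by that gap. On the 3 high plates TC05 to TC07 the medians were -0.20 and -0.13, and 35 of 287 probes (12.2%) were lower in II and IV. On TB86 to TB99 that share was 9.67%. On TC13 the medians were -0.13 and -0.27, with only 5 of 34 probes lower (14.7%) and 0 higher. Its drop from TC12 was larger in II and IV than in I and III.

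The difference varied with the ratio itself. Among the 280 probes with a mean ratio from 0.5 to 1, II minus I was -0.24 and IV minus III -0.19, where all array probes of that range had -0.07 and -0.03. Among the 110 probes from -2 to -1 they were 0.05 and -0.03, where all had 0.10 and 0.10. The differences did not grow steadily with the ratio. They were -0.16 and -0.10 for the 212 probes from 1 to 1.5, and -0.19 and -0.13 for the 79 from 1.5 to 2. In each of the 6 ranges with at least 20 probes here, both differences were lower than over all probes of that range. The 11 probes under -2, 6 of which are the block on TC03, had 0.64 and 0.36, above the 0.19 and 0.15 of all probes so low.

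**Figure D4:**
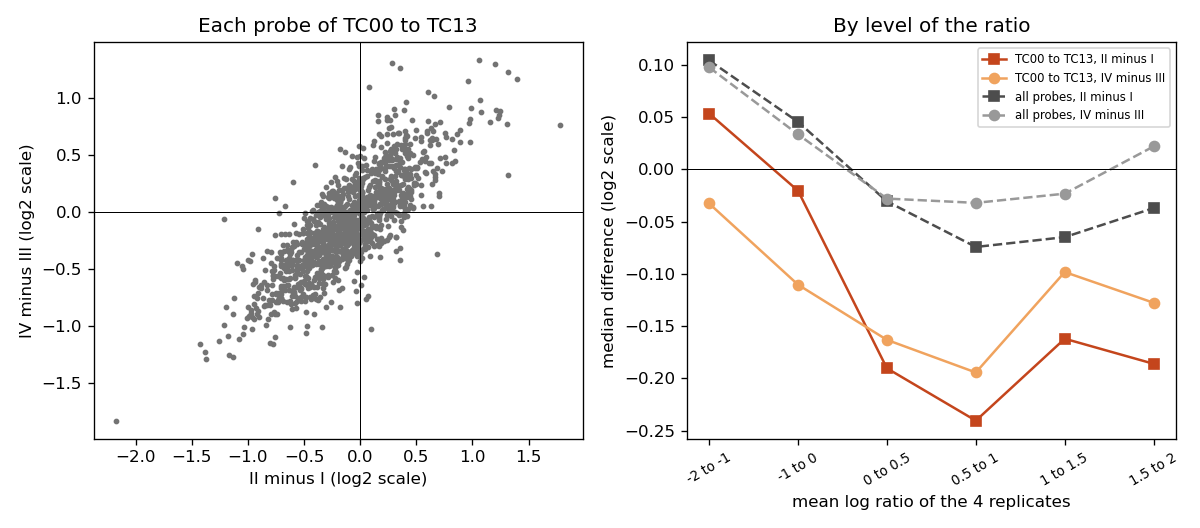
Left, IV minus III (vertical axis) against II minus I (horizontal axis) for each of the 1268 probes, on the log2 scale: the points lie along the diagonal, with more of them at the lower left. Right, the median of both differences by mean ratio for TC00 to TC13 (solid) and for all probes of the array (dashed), for ranges with at least 20 probes here: the solid lines lie under the dashed ones.

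The 8 probes with the widest gaps, 4 in each direction, lay on 4 plates. TC10B10 had 1.52 and 1.46 in I and III but -0.66 and -0.37 in II and IV, a gap of 1.83 between the nearest replicates. In the next well but 1, TC10B12 went the other way, with -1.60 and -1.61 against -0.55 and -0.28, while TC10B11 between them was at -0.59, -0.76, -0.70 and -0.69 in I to IV. Opposite differences thus lay within 3 wells. TC10B09, before them, had 2.36, 2.06, 2.06 and 2.29, with no such split.

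The other 3 probes named for lower values in II and IV lay on TC01 and TC11. At TC01A03, I and III read 1.23 and 1.26, and II and IV -0.14 and -0.03. TC01E02 had 1.41 and 1.22 against -0.02 and 0.07, and TC11G01 had -0.01 and -0.24 against -1.40 and -1.47. At TC01A03 and TC01E02 a ratio well above the median in I and III was near it in II and IV. On the other side, TC03C08 and TC03C07 of the low block and TC03A09, with -1.02 and -1.36 against 0.17 and -0.06, were higher in II and IV. Of these 8 probes, the 2 of the low block passed limma's test against the median and the other 6 did not, with adjusted p from 0.066 to 0.73.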

How the data were processed

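The authors deposited 1 table of 21800 probe IDs and 8 columns, with log ratios of the 2 channels of each array, taken here as log2. Their background correction, normalization, logarithm base and ratio direction were not given in the sources used here. Both columns of a dye swap were identical (0 probes differed) and counted as 1 replicate (n = 4). Scanner signals were not analysed here, and the number of arrays limits the precision. The 21295 probes with a value in every column were centred on each replicate's median. They were fitted with limma 3.58.1 (lmFit and treat, size 0.5, two-sided, adjusted p under 0.05) in R 4.3.3. This fit was checked on simulated data with 4 independent replicates. The check does not cover the likeness of replicates in pairs. Plate slopes and differences between ID series were tested by exact sign-flip permutation over replicates. Python 3.11.15, numpy 2.4.6, pandas 2.3.3 and scipy 1.17.1 were used. Named probes were the 6 highest and 6 lowest past the test with 1 sign in all replicates, the 4 with the widest gap of II and IV from I and III in each direction, and the 3 longest runs each way. Edges, neighbours of named probes, other runs and the wells of TC13 were named after their values were seen. Members, lists and tests were chosen with earlier results of these data known. Alternatives in centring, scaling, threshold, blocks and replicates are given in the closing section.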

Additional observations from a re-analysis of the deposited data

Results flagged for a closer look

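At TC04E05 replicate I stood apart: it was at 2.69, and the other 3 replicates lay between 2.29 and 2.35. It was the only such case among the 36 sets of 4 replicate values examined (plates, named probes, the slope and the differences between stretches). Such gaps arise by chance in about 1 in 20 sets.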

How the results depend on the processing

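Where 0 is placed and the size required decided the counts of probes above and below. The 434 above became 143 without centring, 133 centred on the mode, 174 with a distance over 1 and 697 with none; the 187 below became 305, 387, 71 and 336. Quantile normalization, an adjusted p of 0.01 and random blocks kept both counts within 1.5 times. Leaving out 1 replicate gave 385 to 434 above and 170 to 178 below. With a block for I and III and one for II and IV (correlation 0.730) 377 were above and 152 below. Without centring and centred on the mode, TC08 turned to -0.23 and -0.36, TC11 to -0.015 and -0.14 and TC12 to -0.033 and -0.16, and TC01, TC02, TC04 and TC13, also above 0 before, lay between -0.35 and -0.62. The slope over all plates was 0.063 without TC13, 0.058 without TC00 and TC13 and -0.072 over TC05 to TC13, and 0.041 to 0.046 with 1 replicate left out. The difference from TB86 to TB99 was -0.050 against all TB plates and 0.056 against the last 5. It was -0.020 to 0.0068 with 1 replicate left out, the latter without II. That from TC17 to TC30 was 2.30 by means. For II and IV against I and III, the 41 probes higher and 100 lower became 245 and 9 without centring, 18 and 40 divided by the SD, 134 and 300 at a gap over 0.25 and 2 and 10 over 1. The medians of II minus I and IV minus III were 0.34 and 0.30 without centring, -0.072 and -0.085 divided by the SD, and the latter -0.15 after quantile normalization. The 12 named probes with a call kept sign and call in 132 of 132 alternatives, but had been chosen as extreme. Apart from the settings themselves, the cause was not tested.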

Other observations

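By position on the plates, probes of wells 11 and 12 had medians of 0.30 ± 0.06 and 0.19 ± 0.15 (SD, n = 4) over TC00 to TC13, and those of wells 1 to 10 lay between 0.39 and 0.50. On the TA and TB plates wells 11 and 12 were both at 0.13, within the range of the other wells there. Rows G and D were lowest, at 0.09 ± 0.16 and 0.19 ± 0.04. Row H was highest, at 0.58 ± 0.16, with row E close to it at 0.57 ± 0.14. On the TA and TB plates rows G, D and H were at 0.03, 0.08 and 0.08, within the range of the other rows there (-0.02 to 0.14). These values were not tested.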
